A study of Homo sapiens with 4 samples.

Results

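The ZBTB genes encode transcription factors with an N-terminal BTB (POZ) domain, which pairs the proteins and recruits corepressors, and C-terminal zinc fingers, which read DNA. They were examined in 1 list of PML peaks from MDA-MB-231, a cell line of human triple-negative breast cancer, with no treatment named in the labels. PML is the scaffold protein of PML nuclear bodies. It was immunoprecipitated from cross-linked cells with an antibody against PML in 2 ChIP libraries, with 2 input libraries as the reference, and the authors merged the duplicates. Both groups are the same line, so no genotype, agent or time point is compared. Members were the protein-coding genes whose symbol is ZBTB followed by a digit in the annotated peak table. There were 36 such genes with 127 peaks, of 13948 protein-coding genes with 49617 peaks and of 68937 peaks in all. RefSeq lists 42 protein-coding genes of this name, so 6 were the nearest gene of no peak. ZBTB8OS met the symbol rule but encodes archease, a cofactor of the tRNA ligase, on the strand opposite to a ZBTB gene, and no BTB zinc finger protein.

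BTB zinc finger proteins mostly act as sequence-specific repressors that bring BCOR, SIN3 or histone deacetylase complexes to promoters, and several direct cell fate in blood and brain. One of them, ZBTB16 (PLZF), is fused to the retinoic acid receptor in a rare form of acute promyelocytic leukaemia, as PML itself is in the common form. ChIP-seq peaks mark where the DNA cross-linked to PML, directly or through other proteins, was enriched. They do not measure expression of the gene or of its protein.

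The DNA just upstream of a few ZBTB starts shows what PML peaks covered and what they left out. The sequences are RefSeq's GRCh38.p14, the genome release of the hg38 build of the peaks. Each is printed 5′ to 3′ up to the last base before a RefSeq start of the gene, on its own strand, or on the plus strand between the starts of a divergent pair. Capitals mark the letters GGGCGG, the GC box read by SP factors, or CCAAT, on either strand, and the letters of neighbouring matches can overlap. The first stretch, chr19:58519811-58520060 on the minus strand, lies wholly inside the highest-scoring promoter peak of the family and holds none of the motif letters counted here.
ZBTB45: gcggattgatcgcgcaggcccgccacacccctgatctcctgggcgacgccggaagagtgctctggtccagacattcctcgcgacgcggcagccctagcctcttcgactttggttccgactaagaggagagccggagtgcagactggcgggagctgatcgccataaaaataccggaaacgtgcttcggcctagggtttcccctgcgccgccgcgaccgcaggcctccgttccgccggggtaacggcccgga
The next 2 lie between divergent starts, at chr1:32650933-32651207 for ZBTB8OS and RBBP4 and at chr17:7484250-7484365 for ZBTB4 and POLR2A, and each lies wholly inside 1 peak.
ZBTB8OS and RBBP4: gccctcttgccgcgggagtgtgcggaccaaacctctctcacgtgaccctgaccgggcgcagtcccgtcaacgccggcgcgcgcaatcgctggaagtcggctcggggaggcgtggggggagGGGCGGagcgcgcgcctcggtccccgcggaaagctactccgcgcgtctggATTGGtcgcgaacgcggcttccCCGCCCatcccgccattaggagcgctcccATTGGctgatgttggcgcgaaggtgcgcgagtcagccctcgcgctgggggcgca
ZBTB4 and POLR2A: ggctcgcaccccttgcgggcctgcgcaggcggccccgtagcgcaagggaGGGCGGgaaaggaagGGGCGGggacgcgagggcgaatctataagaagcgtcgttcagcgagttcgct
At ZBTB18, chr1:244048403-244048490 on the plus strand, the stronger promoter peak covered the first 78 of the 88 bases, and it holds overlapping GC boxes.
ZBTB18: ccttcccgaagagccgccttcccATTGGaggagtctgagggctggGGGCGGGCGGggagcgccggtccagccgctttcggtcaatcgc
The last 3, all on the plus strand, lie in no peak: ZBTB7B at chr1:155002399-155002648, ZBTB48 at chr1:6579744-6579993 and ZBTB33 at chrX:120250562-120250811. They are shown because GC-rich promoters with GC boxes were also found outside the peaks. In the ZBTB7B stretch a CCAAT match and a GC box share letters.
ZBTB7B: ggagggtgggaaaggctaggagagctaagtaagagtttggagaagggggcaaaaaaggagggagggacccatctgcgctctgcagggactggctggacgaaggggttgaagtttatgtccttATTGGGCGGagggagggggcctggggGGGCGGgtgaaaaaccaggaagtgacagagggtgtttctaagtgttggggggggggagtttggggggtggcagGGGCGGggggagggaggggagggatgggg
ZBTB48: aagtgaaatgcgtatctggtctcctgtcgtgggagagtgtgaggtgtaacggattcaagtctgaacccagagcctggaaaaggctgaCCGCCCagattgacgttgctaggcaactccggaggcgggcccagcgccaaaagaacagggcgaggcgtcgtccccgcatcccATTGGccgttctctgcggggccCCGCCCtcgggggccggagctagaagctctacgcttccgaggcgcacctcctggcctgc
ZBTB33: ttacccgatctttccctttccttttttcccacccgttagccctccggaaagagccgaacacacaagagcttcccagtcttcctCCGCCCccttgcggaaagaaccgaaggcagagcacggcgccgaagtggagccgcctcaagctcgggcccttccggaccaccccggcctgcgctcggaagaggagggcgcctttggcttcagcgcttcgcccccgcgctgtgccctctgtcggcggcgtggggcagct

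PML peaks lay at the promoters of most ZBTB genes. A gene had a promoter peak when a peak assigned to it was centred within 1000 bp of a transcription start site (TSS). This held for 32 of the 36 genes (88.9%, exact Clopper-Pearson 95% interval 73.9 to 96.9%), beside 78.6% of all protein-coding genes in the table. Counted over all RefSeq genes, it was 32 of 42 (76.2%, interval 60.5 to 87.9%), beside 54.3%. The table gives a gene only where some peak lies nearest to it, so the first share leaves out genes with no peak. The annotated zinc finger genes named ZNF had 297 of 346 (85.8%) in the table and 57.3% of 517 in RefSeq. The KLHL genes, which carry the BTB domain with Kelch repeats in place of zinc fingers, had 23 of 29 (79.3%) and 62.2% of 37. The ZBTB intervals overlap those of both families, narrowly so for ZNF genes in RefSeq, whose upper bound is 61.6%. The RefSeq interval of all protein-coding genes, 53.7 to 55%, lies below that of the ZBTB genes. No list was tested against another, and no value has a replicate error, because the authors merged the libraries. The intervals cover counting error only, and read depth is unknown.

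**Figure D1:**
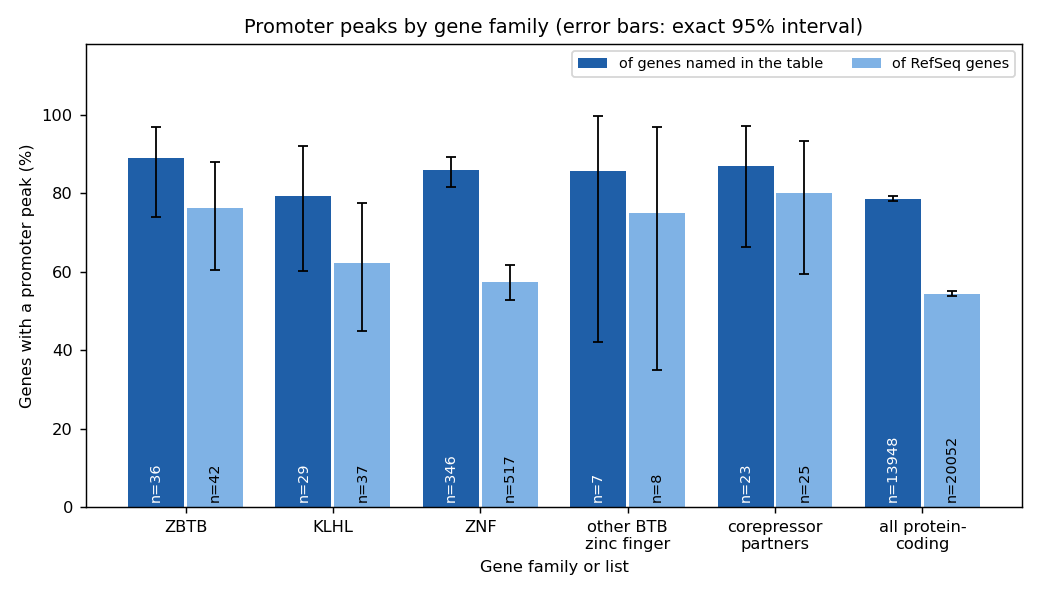
Share of genes with a promoter peak (vertical axis, %) for the ZBTB genes, 4 other gene families or lists and all protein-coding genes, among genes named in the table (dark bars) and among RefSeq genes (light bars), with exact 95% intervals and the number of genes. The ZBTB bars stand at 88.9% and 76.2%, beside 78.6% and 54.3% for all protein-coding genes.

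The promoter peaks of ZBTB genes were about as high as promoter peaks in general. The authors' score of a peak is a whole number of unstated scale, so it only ranks peaks within the list here. The highest promoter score of a ZBTB gene had a median of 64.5 over the 32 genes, beside 63 over the 10958 protein-coding genes with a promoter peak. The order of these 2 medians turned with a 500 bp window (60.5 and 64) and without ZBTB8OS (61 and 63). It lay above 63 for 16 of the 32. Of these genes, 9 (28.1%) reached a score of 100, as did 27.4% of all genes with a promoter peak. The first and last quartiles of all such genes ended and began at scores of 40 and 106, and the lower one held 5 ZBTB genes and the upper one 8. Their promoter peaks had a median width of 744 bp, beside 764 bp for all protein-coding genes.

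**Figure D2:**
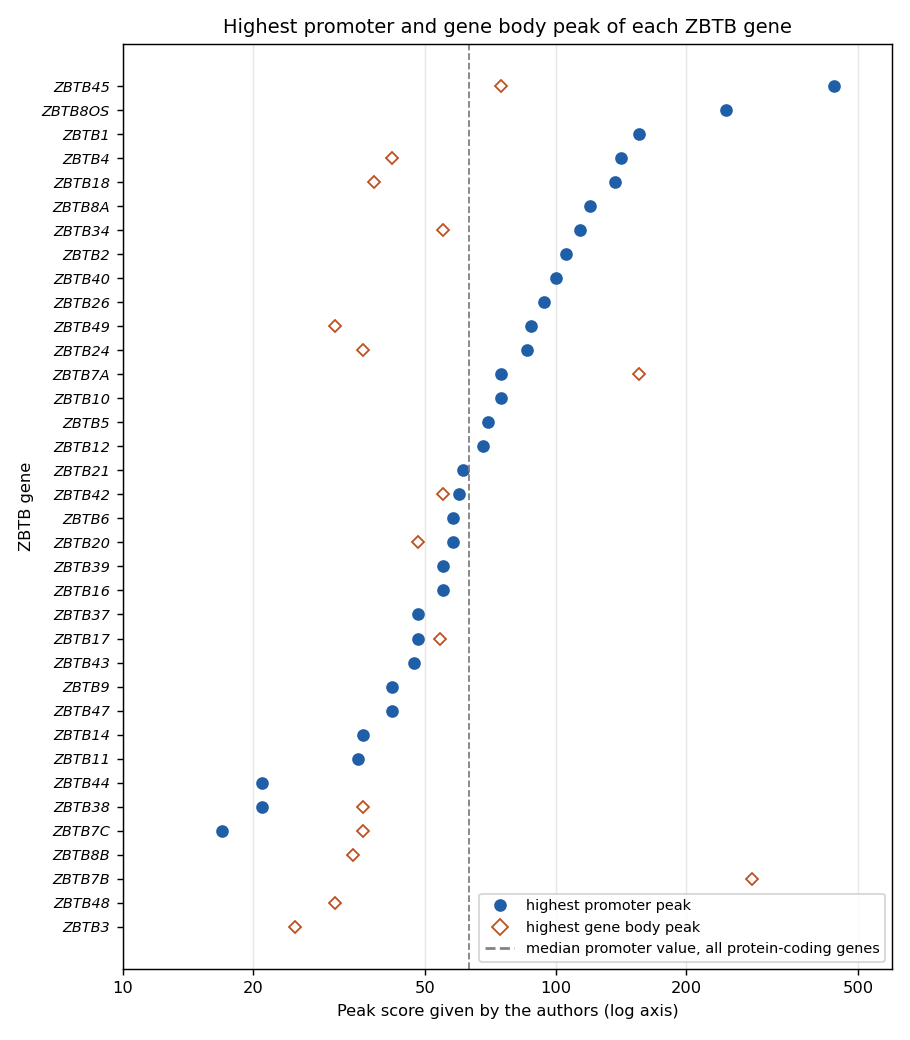
Highest promoter peak score (filled circles) and highest gene body peak score (open diamonds) of each of the 36 ZBTB genes, on a log axis, with the median of all protein-coding promoters (63) as a dashed line. ZBTB45 leads at 440, 4 genes have no promoter peak, and ZBTB7A and ZBTB17 are among the genes whose gene body peak is the higher one.

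ZBTB45 had the highest promoter peak of the family. It ran from 58519001 to 58520309 on chromosome 19, was centred 53 bp upstream of a TSS, and had a score of 440, which is rank 67 among all peaks and rank 25 among 10958 genes by highest promoter score. A second peak at another ZBTB45 start, from 58538298 to 58538954, had a score of 63, so the 2 promoters of the gene differed in height. Inside the gene, 3 further peaks lay 1414 to 3463 bp downstream of the strong promoter, with scores of 27, 75 and 30, and another peak between the promoters had 36.

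ZBTB8OS came next with a score of 247, at a peak 2191 bp wide from 32649693 to 32651883 on chromosome 1. This peak covers the divergent start of RBBP4, the histone-binding subunit of several deacetylase complexes, which lies 276 bp from that of ZBTB8OS, and the table's annotation names an RBBP4 transcript for it. Its height can therefore not be given to either gene. The same holds at ZBTB4, a methyl-CpG-binding repressor related to Kaiso. A peak of 3137 bp from 7482042 to 7485178 on chromosome 17, with a score of 114, covers the starts of ZBTB4 and of POLR2A, the largest subunit of RNA polymerase II, 117 bp apart. ZBTB4 also had a peak from 7478824 to 7480142 with a score of 142, which the table places 148 bp from a TSS in a first exon. The 1 ZBTB4 start in the RefSeq promoter table is 7484249, so by RefSeq the highest score at its start was 114.

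ZBTB1, which is needed for lymphoid development, had 1 peak with a score of 156 from 64503327 to 64505432 on chromosome 14. ZBTB25 starts on the other strand within that peak, 49 bp from the ZBTB1 start, and has no row of its own. ZBTB18 (RP58), a transcriptional repressor that acts in cortical neuron development, had promoter peaks with scores of 137 and 112 on both sides of its first start. ZBTB8A had 120, ZBTB34 114, ZBTB2 106 and ZBTB40 100. ZBTB2 is known as a repressor of the p53 pathway, and ZBTB5, a relative with the same reported role, had 70 at its promoter. ZBTB26 completed the 10 highest with 94. Its neighbour ZBTB6, 2243 bp away on chromosome 9, had the lower score of 58. ZBTB43, 22429 bp from ZBTB34 on the same chromosome, had 47, below the 114 of ZBTB34.

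The other promoter scores ran from 17 to 88. ZBTB49 had 88 at a peak shared with the nucleolar protein gene LYAR, whose start lies 97 bp from its own. ZBTB24, mutated in a form of the immunodeficiency, centromeric instability and facial anomalies syndrome, had 86. ZBTB7A and ZBTB10 had 75, ZBTB12 68, ZBTB21 61, ZBTB42 60 and ZBTB20 58. ZBTB39 and ZBTB16 had 55. These values lie close to the median of all promoters, on both sides of it. ZBTB17 and ZBTB37 had 48, the latter at a peak that the annotation gives to the start of GAS5, a long noncoding RNA gene. ZBTB9 and ZBTB47 had 42, ZBTB14 36 and ZBTB11 35. The lowest were ZBTB38 and ZBTB44 with 21 and ZBTB7C with 17, beside 13 as the lowest score of the whole list. For ZBTB38 this follows the table's own distances, and another of its RefSeq starts had a peak of score 36. Of all genes with a promoter peak, 12.1% had a score under 30, as did these 3 of 32 ZBTB genes (9.38%).

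The 4 genes without a promoter peak in this window were ZBTB3, ZBTB7B, ZBTB8B and ZBTB48. ZBTB48 (TZAP), which binds telomere repeats and trims long telomeres, missed it narrowly. Its nearest peak was centred 1002 bp downstream, over exon 2, with a score of 26. ZBTB7B had a peak of score 122 centred 1137 bp upstream and a wide one of score 158 centred 1653 bp downstream. A gap of 413 bp, from 155002283 to 155002695, separates these 2 peaks, and the first of its starts in the RefSeq promoter table, at 155002649, lies in it. The RefSeq span of the gene begins further upstream, at 155001750, inside the first of these peaks. ZBTB3, a short gene of 3198 bp, had weak peaks over its last exon and 3' UTR with scores of 22 and 25. ZBTB8B had a peak of score 34 in exon 2, 6440 bp from its TSS, and one of score 113 beyond its far end, 35615 bp from the TSS. On the near side of the window, ZBTB18 at 837 bp (score 137) and ZBTB11 at 835 bp (score 35) were the farthest promoter peaks counted.

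Among the 6 RefSeq genes named by no peak, some had a peak that the table gives to a neighbour. ZBTB25 shared the peak of ZBTB1 described above. ZBTB41 had a peak with a score of 143 over one end of its span, from 197200941 to 197201764 on chromosome 1, which the table gives to CRB1; the RefSeq tables used here do not hold the strand of ZBTB41. ZBTB33 (Kaiso), the founding methyl-CpG-binding BTB zinc finger protein, had no peak within 5495 bp of the gene on chromosome X. ZBTB22, ZBTB32 and ZBTB46 had no peak overlapping the 1000 bp on either side of a RefSeq start. ZBTB32, a regulator of lymphocyte activation, was touched at its far end by a peak of score 90 at the KMT2B promoter, and ZBTB46, a marker of classical dendritic cells, held 2 peaks inside the gene with scores of 36 and 26. No peak in the list is no measure of absent binding, since no source used here gives the authors' threshold.

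Gene assignment therefore moves single values within the family. ZBTB11 had a promoter score of 35 by its own row, 835 bp upstream, but a peak of score 120 from 101676101 to 101677312 covers its RefSeq start on chromosome 3 and is named for the antisense gene ZBTB11-AS1. Of the 36 RefSeq ZBTB genes with a start in the promoter table, 30 (83.3%, interval 67.2 to 93.6%) had any peak overlapping the 1000 bp on either side of a start, beside 65.1% of 15842 protein-coding genes. A divergent RefSeq start within 1000 bp upstream was found for 9 of the 36 ZBTB genes (25%) and for 22.1% of all. All 9 of these ZBTB genes had a peak overlapping the 1000 bp on either side of a start (interval 66.4 to 100%), beside 83.5% of all genes with such a partner. ZBTB1 and ZBTB25 are partners of each other and share 1 peak, so the 9 are not independent and the interval is too narrow. At ZBTB48 and ZBTB44 no peak lay between the divergent starts. Of the other 27 ZBTB genes, 21 had a peak overlapping the 1000 bp on either side of a start (77.8%, interval 57.7 to 91.4%), beside 59.9%.

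**Figure D3:**
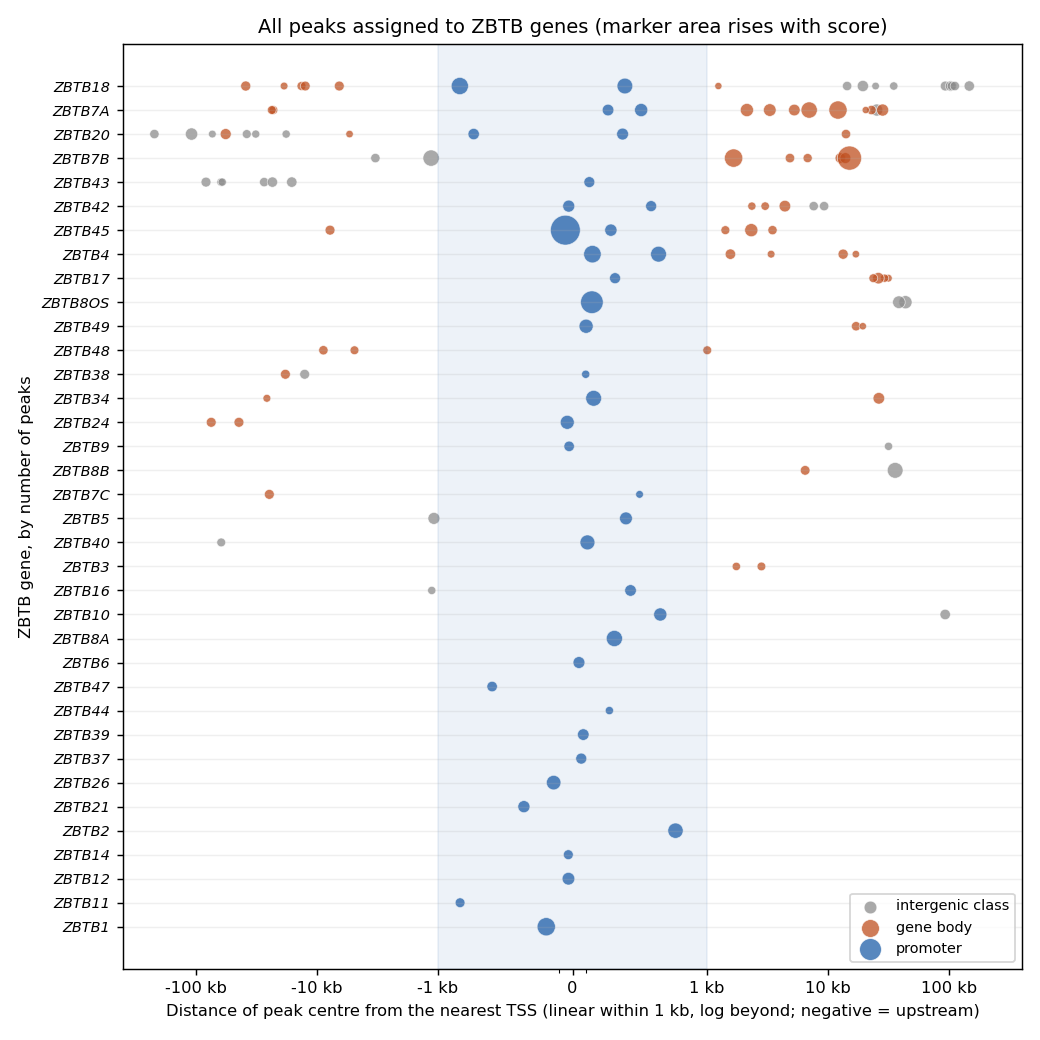
Distance of the 127 ZBTB peaks from the nearest TSS (horizontal axis, linear within 1 kb and log beyond), 1 line per gene, with marker area rising with score and colour for promoter, gene body and intergenic class. The shaded window holds 38 promoter peaks of 32 genes, and ZBTB18 and ZBTB7A have the most peaks, 17 and 13.

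Most ZBTB peaks lay outside promoters, as did most peaks of all protein-coding genes, and a few genes held many of them. Of the 127 peaks, 38 (29.9%, interval 22.1 to 38.7%) were promoter peaks, beside 24.4% for all protein-coding genes. Gene body peaks, defined as those over 1000 bp from a TSS and classed as intron, exon, UTR or transcription termination site, numbered 54. That is 42.5% of the ZBTB peaks, beside 45.6% of all peaks of protein-coding genes. The other 35 (27.6%, beside 30%) were classed as intergenic. Promoter peaks had a median score of 62, gene body peaks 31.5 and the rest 31, close to the 61, 31 and 31 of all protein-coding genes. ZBTB18, ZBTB7A, ZBTB20 and ZBTB7B held 49 of the 127 peaks (38.6%), a share not computed for other families. In contrast, 13 genes had promoter peaks and no other. These 13 were also the ZBTB genes with 1 peak (36.1%, beside 42.3% of all protein-coding genes with 1 peak of any kind).

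A gene body peak was assigned to 16 of the 36 genes (44.4%, interval 27.9 to 61.9%), beside 50.1% of all protein-coding genes. The annotated transcript was the gene's own for 34 of the 54 peaks, another gene's for 15, and not matched to RefSeq for 5. ZBTB24, for example, had 2 gene body peaks that lie in introns of AK9, and the 5 upstream gene body peaks of ZBTB18 lie in introns of the noncoding gene LINC02774. Leaving such peaks out, 15 of 36 genes had a gene body peak (41.7%, beside 40.6% of all protein-coding genes), so the order of the shares turned. It turned also when peaks centred in the RefSeq span were counted, those near its start left out. This gave 52.8% of the 36 ZBTB genes in the promoter table, beside 42.8%. Any peak in the span, promoter peaks included, was found for 83.3% of the 42 RefSeq ZBTB genes, beside 63.8%. Counted by position alone, the 42 RefSeq ZBTB genes held 84 peaks over 2610894 bp, or 0.322 per 10 kb, beside 0.324 per 10 kb over all protein-coding genes. The density differed widely within the family. ZBTB7A held 3.39 peaks per 10 kb of its span, while the very long genes ZBTB20, ZBTB7C and ZBTB16 held 0.0961, 0.104 and 0.0507.

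The 3 ZBTB7 genes differed from one another in how peaks lay over them. ZBTB7A (LRF, also called Pokemon), a repressor of fetal globin genes and a cancer-linked factor, had 2 promoter peaks with scores of 55 and 75. Beyond these it had 10 gene body peaks, the most of any member. A run of 6 peaks classed as intron 1, the promoter peaks included, reached from 4057980 to 4067323 on chromosome 19. They filled 7026 bp of the 9344 bp between these outer edges (75.2%), with the highest score, 122, at the far end from the start. This stretch is not the intron itself, and the last peak runs past the RefSeq end of the gene span at 4066899. The widest ZBTB peak followed in intron 2, from 4051529 to 4055491, with a width of 3963 bp and a score of 156. This is over the score of either ZBTB7A promoter peak. Of the 10 gene body peaks, 3 are annotated to MAP2K2 or PIAS4, the genes on either side.

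ZBTB7B (ThPOK), which commits T cells to the CD4 lineage, had its highest scores at both ends of the gene. The peak from 155017175 to 155017980 on chromosome 1 had a score of 284, rank 263 of the list and the highest of any ZBTB gene body peak. It lies inside the RefSeq span of ZBTB7B near its end, and the annotation also names it as the end of DCST2, the next gene. Just past that start, and over the next one at 155002802, the peak from 155002696 to 155005871 was 3176 bp wide with a score of 158. The other gene body peaks had scores of 29 to 47. ZBTB7C, a gene of 385914 bp, stood at the other extreme by assigned peaks. It had a promoter peak of score 17 and an intron peak of score 36. By position, whichever gene a peak is assigned to, 4 were centred in its span, beside 8 for ZBTB7A and 6 for ZBTB7B.

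**Figure D4:**
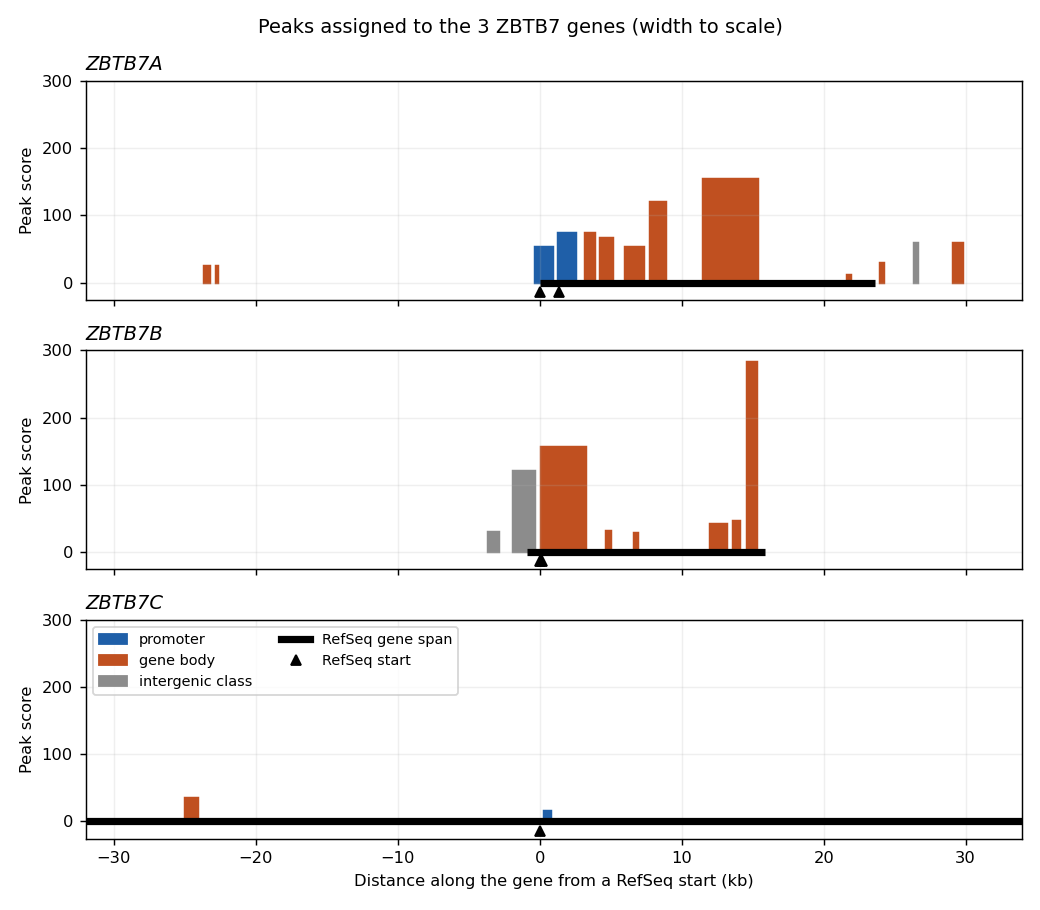
Peaks assigned to ZBTB7A, ZBTB7B and ZBTB7C, drawn to scale along the gene (horizontal axis, kb from a RefSeq start, for ZBTB7C the start nearest its promoter peak) with the score as height. Broad peaks line the first part of ZBTB7A up to a score of 156, ZBTB7B has its tallest peak, 284, at the far end, and ZBTB7C has assigned peaks of 17 and 36.

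Other members with several gene body peaks were ZBTB18 with 6 and ZBTB4, ZBTB17 and ZBTB45 with 4 each. ZBTB17 (MIZ-1), the zinc finger partner of MYC in repression, had a promoter peak of score 48 and 4 peaks in the body 23509 to 31288 bp from that TSS, with scores of 26, 54, 21 and 17. One of these lay in an MLT1H repeat. In ZBTB18, 9 more peaks lay in intergenic DNA downstream of the gene, with scores of 16 to 51, out to 145709 bp from a TSS. ZBTB20, a repressor of alpha-fetoprotein in liver with a span of 832789 bp, had promoter peaks of scores 52 and 58 at its most upstream start. Its 9 other peaks had scores of 15 to 64, and all 6 in intergenic DNA upstream lay in L1 or LTR repeats, among them an LTR12C element.

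The methyl-CpG-binding members differed in score. ZBTB4 had promoter peaks of 142 and 114 and 4 weaker gene body peaks (15 to 42). The peak of 142 lies away from its RefSeq start, and that of 114 is shared with POLR2A. ZBTB38 (CIBZ) had 1 promoter peak of 21, and 2 peaks of score 36. One of these, from 141368114 to 141368489, is classed as intron 1 at 18124 bp from the table's TSS but lies at another RefSeq start, 141368504, and the other lies upstream of the gene. ZBTB33 had none. ZBTB16 (PLZF) had a promoter peak of 55, in a CpG island of its first intron 431 bp from a TSS, and a peak of 21 centred 1123 bp upstream. No other peak was centred in its 197060 bp.

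Wide peaks were found at few members. Of the 127 peaks, 5 (3.94%) were 2000 bp wide or more, beside 1.99% of all peaks of protein-coding genes, and they belonged to ZBTB1, ZBTB4, ZBTB7A, ZBTB7B and ZBTB8OS, with scores of 114 to 247. Among the 5000 highest-scoring ranks of the list were 17 ZBTB peaks (13.4%, beside 8.66%). The cut at 2000 bp was set after the widths were seen.

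CpG islands were named for each ZBTB promoter peak for which the annotation could name one. The detailed annotation names a CpG island only for promoter peaks classed as intron or intergenic, and 13 of the 38 ZBTB ones were, all in introns. A CpG island was named for all 13, beside 73% of the 2470 such peaks of protein-coding genes. No ZBTB promoter peak had a repeat named, beside 0.719% of all. In the body of the genes, 7 of 54 peaks (13%) had a repeat named, beside 21.2%, and in intergenic DNA 16 of 35 (45.7%), beside 41.1%.

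The promoter windows of ZBTB starts that a peak overlapped were rich in GC and in CpG. RefSeq gave 70 windows of 300 bases (250 before the start and 50 after it) for 36 of the 42 genes. A peak overlapped 37 of the windows (52.9%), beside 51.3% of 22198 windows of all protein-coding genes. An overlap of 1 base was enough. Some overlapped windows therefore have a start that lies in no peak, such as those of ZBTB42 and the first ZBTB7B start. The overlapped windows had a median GC content of 69.7% and a median CpG observed-to-expected ratio of 0.832, beside 68% and 0.858 for all overlapped windows. The windows that were not overlapped had 45.7% and 0.336, beside 54% and 0.38 for all. Of these 33 windows, 8 belong to each of ZBTB20 and ZBTB38, which have 8 and 10 RefSeq starts. Without the windows of both genes, the 17 left had 57.7% and 0.732, and the 35 overlapped ones 69.7% and 0.843. Some windows outside peaks were as rich as those inside, such as that of ZBTB46 with 89.7% and a ratio of 1.15, and that of ZBTB33 with 67% and 0.989.

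**Figure D5:**
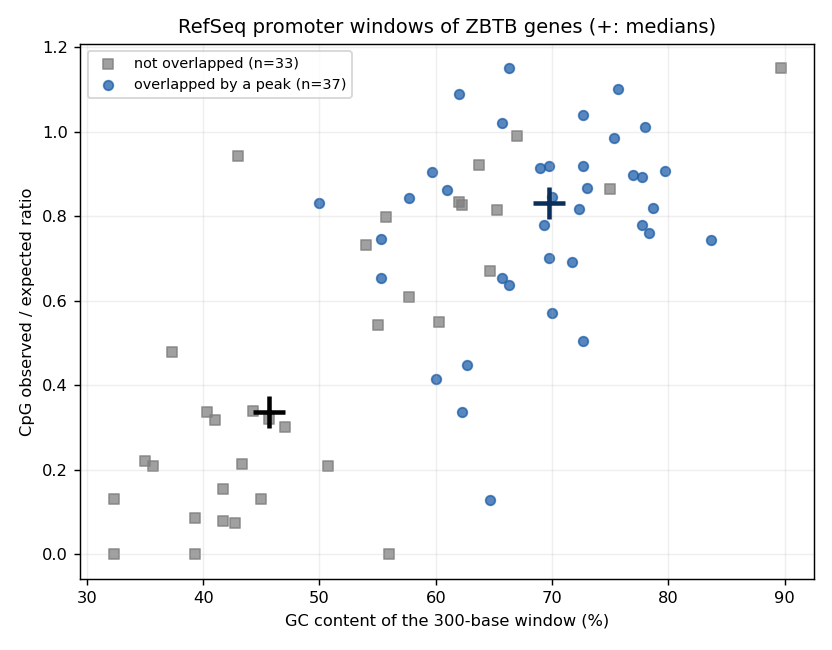
GC content (horizontal axis, %) and CpG observed-to-expected ratio (vertical axis) of the 70 RefSeq promoter windows of ZBTB genes, 37 overlapped by a PML peak (circles) and 33 not (squares), with their medians as crosses. The overlapped windows centre on 69.7% and 0.832, and the others on 45.7% and 0.336, with some squares among the circles.

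Exact motif letters were counted in the same windows on both strands. The GC box GGGCGG stood in 31 of the 37 overlapped ZBTB windows (83.8%) and in 12 of the 33 others (36.4%), beside 76.5% and 35% for all protein-coding windows and 56.3% of all windows. CCAAT went the other way, with 10 of 37 (27%) and 18 of 33 (54.5%), beside 32% and 37.5%, and 34.7% of all windows. Without ZBTB20 and ZBTB38 the GC box counts were 29 of 35 and 10 of 17, and the CCAAT counts 10 of 35 and 9 of 17. The ETS letters CCGGAAGT stood in 5 windows (7.14%, beside 5.33%), of ZBTB11, ZBTB37, ZBTB38 and ZBTB45. All 5 were overlapped, which is 13.5% of the overlapped ZBTB windows, beside 8.12%. ZBTB45 counts through neighbouring windows that overlap each other and hold the same match, so there are fewer sites than windows. The cAMP response element TGACGTCA was found in 4 ZBTB windows, of ZBTB11, ZBTB21, ZBTB38 and ZBTB48 (5.71%, beside 2.26%), 3 of them overlapped. The AP-1 letters TGANTCA stood in 6 (8.57%, beside 6.15%), of which 1 was overlapped. That is 2.7% of the overlapped ZBTB windows and 15.2% of the others, beside 3.8% and 8.63% for all protein-coding windows.

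The letters ACTACANNT, part of the element bound by RONIN and ZNF143, stood in 1 ZBTB window, that of ZBTB8B, which no peak overlapped (1.43%, beside 3.69% of all windows). The NRF1 letters GCGCATGCG stood in the window of ZBTB43, and the YY1 letters AAGATGGCG in one of ZBTB22, beside 2.36% and 2.41% of all windows. TCTCGCGAG, part of an element bound by Kaiso, was found in none of the 70 windows and in 0.933% of all. A match of letters is a description of the window and not a binding site.

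Genes of the same domain family under other names and genes of corepressor partners were read in the same way. Of 8 BTB zinc finger genes with other names, 7 are in the table and 6 had a promoter peak (75% of the 8, interval 34.9 to 96.8%), beside 54.3% of all RefSeq protein-coding genes. Their median highest score was 109. ZNF131 had 168, HIC1, a tumour suppressor that represses SIRT1, 146, and MYNN 112. BCL6B had gene body peaks only, and BCL6, the germinal centre repressor, was the nearest gene of no peak. Of 25 genes of corepressor and ubiquitin ligase partners, 20 (80%, interval 59.3 to 93.2%) had a promoter peak, beside the same 54.3%. The median highest score of these 20 was 110. Of the 20, 15 (75%) lay above 63, beside 49.7% of all protein-coding genes with a promoter peak. The leading 3 were CHD4, the remodelling ATPase of the NuRD complex, with 206, BCOR with 204 and PCGF1, its partner in a Polycomb complex, with 180. BCORL1, MTA1, RBBP4, SIN3B and HDAC3 had none by this assignment, but RBBP4 shares the ZBTB8OS peak. Both lists were small.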

How the data were processed

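PML ChIP-seq was made from 2 ChIP and 2 input libraries, and the authors deposited 1 annotated peak table of the merged duplicates, per the labels. Per the submitters' processing notes, peaks on hg38 involved HOMER 4.11.1 and MACS2 2.1.1.20160309, besides Picard 2.0.1, BWA 0.7.12 and Trimmomatic 0.36, without settings. The peak score was deposited by the authors as a whole number of unstated scale. Distances and positions are in bp, per the file headers. No depth or replicate can be read from the table.

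Peaks were grouped by nearest gene, and RefSeq genes (GRCh38.p14) gave spans, starts and promoter sequences. All 36 members matched by gene ID, and 31 had promoter sequences. For 72 of 115 member peaks, a RefSeq start lay within 2 bp of the TSS that the table's distance points to. Shares have exact 95% Clopper-Pearson intervals, and no test was made. The functions were tested on simulated data. Members and lists were chosen with earlier results of these data known. Named genes were the 10 highest promoter scores, those without a promoter peak, the 5 with the most gene body peaks with ties, and 9 of known function, besides any other member. Protein features had been planned and are not analysed here. Alternatives changed the window, the peaks kept, the annotation, the gene assignment and the members. Python 3.11.15, numpy 2.4.6, scipy 1.17.1, pandas 2.3.3 and matplotlib 3.10.9 were used.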

Additional observations from a re-analysis of the deposited data

How the results depend on the processing

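Shares are given for ZBTB genes with the value of all protein-coding genes after each. The share with a promoter peak went from 88.9% to 97.2% with a 5000 bp window (87%), to 25% with the 5000 highest-scoring peaks (23.4%) and to 58.3% with the promoter annotation class in place of distance (46.2%). Among RefSeq genes it went from 76.2% to 21.4% with the 5000 highest-scoring peaks (16.2%). The share with a gene body peak went from 44.4% to 5.56% with those peaks (3.26%). The promoter share of ZBTB peaks went from 29.9% to 46.5% with the 5000 bp window (36.7%), 46.1% with the higher-scoring part of the list (36.8%), 64.7% with the 5000 highest-scoring peaks (78.3%) and 16.5% with the annotation class (13.7%). With the 5000 highest-scoring peaks the ZBTB share of promoter peaks, over 17 peaks, lay below that of all genes. Each of these settings keeps fewer or more peaks by construction. The gene body share lay below that of all genes in the main reading. It lay above that share with the higher-scoring part (33.3% and 30.6%) and with the 5000 highest-scoring peaks. The same held for the RefSeq span without peaks near its start (52.8% and 42.8%). It held also with other genes' transcripts left out (41.7% and 40.6%), a setting chosen after seeing the data. The other alternatives stayed within the interval of the main value, among them a median promoter score of 60 to 61. The main median, 64.5, lay above the 63 of all genes, but it was 60.5 with a 500 bp window (64), 60 with the annotation class (61) and 61 without ZBTB8OS (63). No paired analysis was possible because the duplicates were merged into 1 list. Counts of 36 genes limit the precision.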

Other observations

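Peaks at noncoding genes named for ZBTB genes were left out by the rule on protein-coding genes. ZBTB11-AS1 had 3 peaks, the one at its promoter with a score of 120. ZBTB20-AS1 had a peak of score 70 at -349 bp from its TSS, which is over the 58 of the highest ZBTB20 promoter peak. ZBTB20-AS5 had 3 peaks with scores of 68, 36 and 30 inside the ZBTB20 span, and ZBTB46-AS1 had 1 with a score of 36. Among the partner genes, BCOR had 34 peaks with 21 in gene bodies, and KDM2B had 10 with 9. Both were picked out after their counts were seen. SIN3A and NCOR1, also corepressor scaffolds, had 1 peak each, at the promoter, with scores of 48.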
